A study of Macaca mulatta with 24 samples.

Results

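The genes described here carry glucose carbon from the blood to the TCA cycle. They were chosen by name, as the rows of the deposited table whose symbol is one of 38 listed members, and all 38 were found among 17208 gene symbols. The list holds 15 glycolytic enzymes, 2 lactate dehydrogenases, 5 transporters of glucose or monocarboxylates, 4 genes of pyruvate dehydrogenase and its kinase, and 12 enzymes of the TCA cycle. RNA-Seq was performed on the nucleus accumbens core (NAcc) of 24 unrelated adult male rhesus macaques, each measured once. The 8 controls had water on both spouts and a 10% maltose dextrin solution to match calories. The 16 drinkers could choose between water and 4% (w/v) ethanol for 22 h per day over 12 months, after an induction that the controls also went through with water. Drinkers were divided by consumption into LD* (light and binge drinkers, 8 animals, all labelled LD, daily intake 0.47 to 2.07 g/kg) and HD* (8 animals, 2.74 to 3.78 g/kg). The HD* group joins 4 heavy drinkers (HD, 2.74 to 3.09 g/kg) and 4 very heavy drinkers (VHD, 3.09 to 3.78 g/kg). Drinking was voluntary, so animals were not assigned to a category, and intake cannot be told apart from whatever else differed between those that drank little and those that drank much.

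Glycolysis splits a glucose molecule into pyruvate in the cytosol and yields a little ATP and NADH. Pyruvate is then either reduced to lactate by lactate dehydrogenase or taken into the mitochondrion, where pyruvate dehydrogenase turns it into acetyl-CoA for the TCA cycle. In brain the pathway is shared between cells: neurons lean on oxidative metabolism and carry the enolase ENO2, the glucose transporter SLC2A3 and the monocarboxylate transporter SLC16A7, while astrocytes carry the aldolase ALDOC and are a main source of lactate.

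The values are TPM (a share of each animal's total that is corrected for gene length), so levels may be compared between genes, and a rise of some genes lowers the share of others. The depth of each animal's library is not given in the sources used here, which state only an average over samples. Differences between groups are given as differences in mean log2(TPM + 1), which understates the change of weakly expressed genes. The animals belonged to 4 cohorts, housed and studied as units: cohort 4 (2 LD*), cohort 5 (3 controls, 2 HD, 2 VHD), cohort 7a (2 controls, 3 LD*, 2 HD, 2 VHD) and cohort 7b (3 controls, 3 LD*). Neuron markers were present in every animal, and the 12 markers of striatal projection neurons (the principal neurons of the NAcc) summed to between 3550 and 12113 TPM in every animal but Control 8 (2741 TPM) and Control 6 (779 TPM). Control 6 also had the highest oligodendrocyte marker score (1.64, the mean over 10 markers of centred log2(TPM + 1)).

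Most of the 38 genes were abundant transcripts of the NAcc. Of the 38, 33 averaged at least 10 TPM over the 24 animals, and the median of these was 212 TPM against 37.5 TPM for all 9197 genes above that limit. Together the 38 genes took between 1.45% and 2.42% of an animal's total. GAPDH, which oxidises glyceraldehyde 3-phosphate, was the most abundant member at 5558 ± 859 TPM (mean ± SD, n = 24). It was followed by ALDOC at 1928 ± 578 TPM, the enolase ENO1 at 1350 ± 204 TPM, the cytosolic malate dehydrogenase MDH1 at 1266 ± 139 TPM and the neuronal enolase ENO2 at 1125 ± 326 TPM. Pyruvate kinase (PKM), the last enzyme of glycolysis, came sixth, at 1061 ± 248 TPM. The spreads of ALDOC, ENO1, MDH1, ENO2 and PKM overlapped, and their order differed between animals. ENO1, for example, was above ENO2 in 19 of the 24 animals.

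At the entry of the pathway and at its exit toward lactate, levels were far apart between isoforms. Hexokinase was almost entirely HK1, at 172 ± 27.0 TPM, while HK2 stood at 2.03 ± 0.553 TPM. The 3 phosphofructokinase genes, which commit glucose to glycolysis, were close together, PFKM at 212 ± 39.7, PFKL at 180 ± 19.4 and PFKP at 129 ± 41.1 TPM. Lactate dehydrogenase was mostly LDHB (529 ± 80.5 TPM), the form that favours pyruvate, with LDHA at 225 ± 39.3 TPM, and LDHA was below LDHB in all 24 animals. SLC2A1, the glucose transporter of the blood-brain barrier and glia, stood at 98.0 ± 15.5 TPM and exceeded the neuronal SLC2A3 (53.2 ± 15.2 TPM) in all 24 animals. The plasma membrane transporters of lactate and pyruvate were weak, with SLC16A1 at 9.82 ± 2.82, SLC16A3 at 3.21 ± 1.42 and SLC16A7 at 1.53 ± 0.595 TPM. Within the pyruvate dehydrogenase complex, the E1 subunits PDHA1 and PDHB had 63.9 ± 12.4 and 174 ± 16.6 TPM, the E2 core DLAT 35.5 ± 8.00 TPM, and the inhibitory kinase PDK1 4.49 ± 1.43 TPM. The 12 TCA cycle members ran from 54.2 TPM for DLST, the E2 subunit of the oxoglutarate dehydrogenase complex, to the 1266 TPM of MDH1. The 5 members HK2, SLC16A1, SLC16A3, SLC16A7 and PDK1 had means below 10 TPM, and their tests come from a separate fit over the 13637 genes with at least 1 TPM. The other 33 were tested among the 9197 genes.

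**Figure D1:**
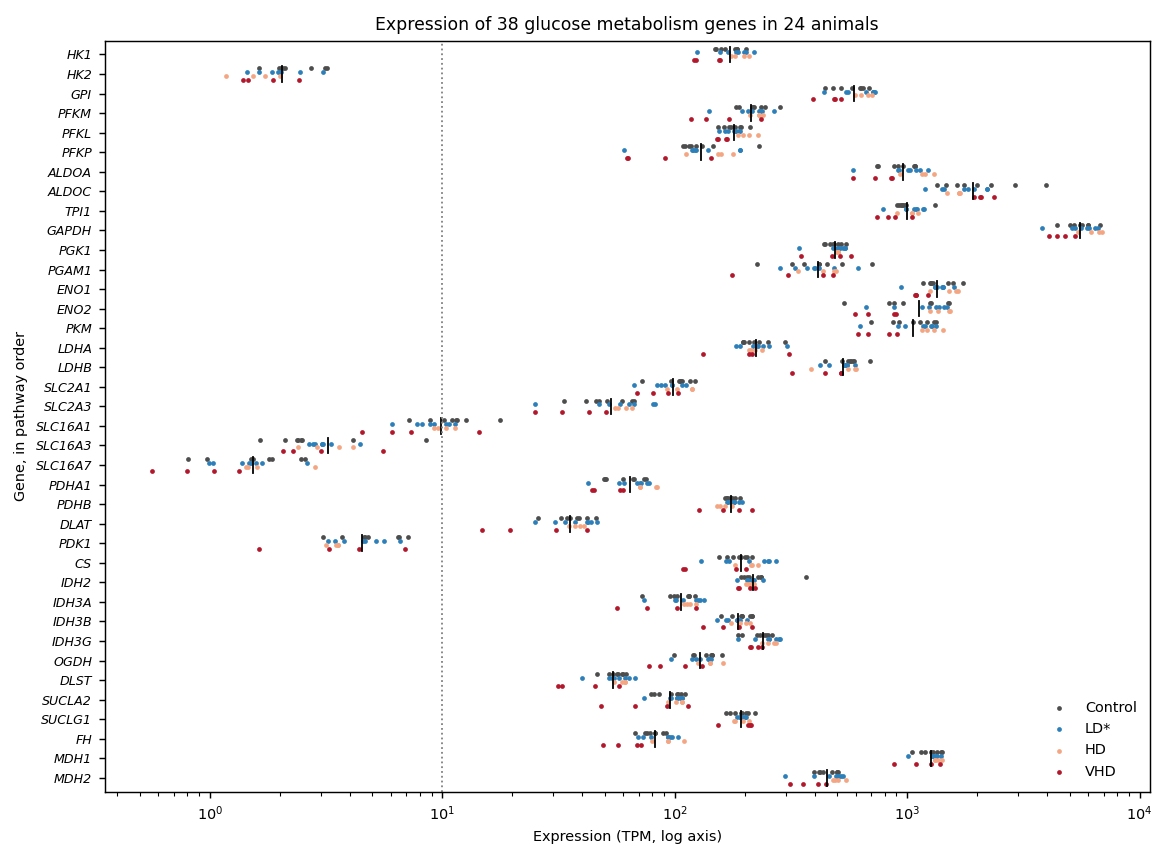
Expression in TPM (log axis) of the 38 genes in pathway order, 1 point per animal coloured by drinking category, with a black bar at the mean over 24 animals and a dotted line at the 10 TPM limit. Levels run from 1.53 TPM for SLC16A7 to 5558 TPM for GAPDH, and the lowest point of many genes is a VHD animal.

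The members varied less between animals than most genes did, in a comparison that was not matched for expression level. They were also more abundant than most genes. The median SD of log2(TPM + 1) over the 24 animals was 0.26 for the 33 tested members and 0.31 for all tested genes, and 24 of the 33 were below that all-gene median. The steadiest were SUCLG1, a subunit of succinyl-CoA ligase (SD 0.12, 154 to 222 TPM), PDHB (SD 0.14) and PFKL (SD 0.15). The most variable were PFKP (SD 0.49, 60.2 to 230 TPM), ENO2 (SD 0.47, 534 to 1522 TPM), SLC2A3 (SD 0.45, 24.9 to 82.4 TPM), the phosphoglycerate mutase PGAM1 (SD 0.43, 176 to 709 TPM) and DLAT (SD 0.38, 14.8 to 46.3 TPM). Of 2 members often used as reference genes in qPCR, PGK1 (phosphoglycerate kinase) had an SD of 0.18, smaller than in all but 10.6% of tested genes, and GAPDH had an SD of 0.23, smaller than in all but 26.7%. The 3 groups accounted for a median of 5.50% of a member's variance (6.19% over all genes) and the 4 cohorts for 10.3% (15.2% over all genes).

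Variation between animals was shared by many of the members. A score was taken as the mean over the 38 genes of log2(TPM + 1), centred on each gene's mean, and it ran from −0.54 to 0.23. It was lowest in HD* 8 (−0.54), HD* 6 (−0.40) and LD* 5 (−0.38), with the other 21 animals between −0.13 and 0.23. These 3 animals also had the lowest scores over 10 neuron markers, at −0.77, −0.75 and −0.72, and the 2 next lowest animals in the metabolic score, Control 8 (−0.13) and HD* 1 (−0.13), were next lowest in neuron markers too (−0.59 and −0.22). In bulk tissue, fewer cells of a type and less RNA per cell cannot be told apart. HD* 8, HD* 6, LD* 5, Control 8 and Control 6 also had more of their total in the 10 most abundant genes (5.42% to 6.33%) than the other 19 animals (3.53% to 4.89%), and the part of any of these features in the results below was not tested beyond the fits given there.

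**Figure D2:**
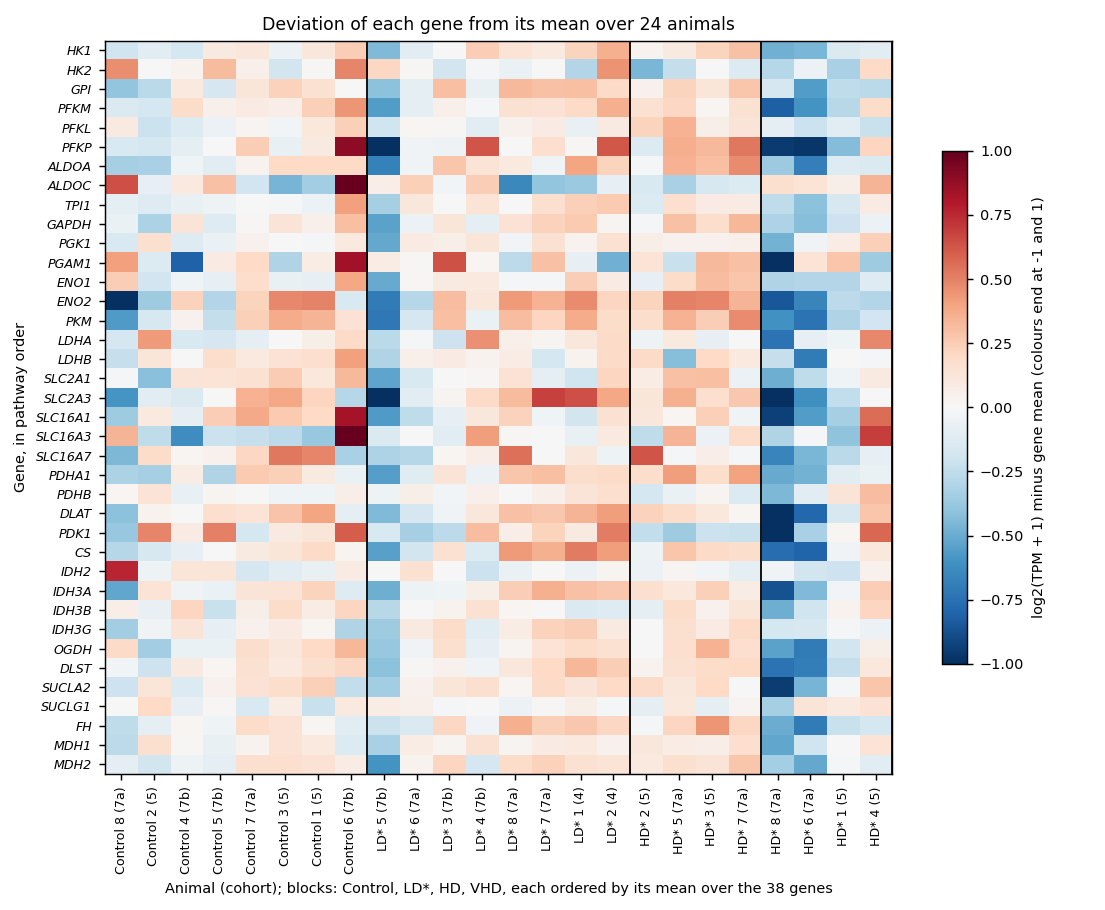
Deviation of log2(TPM + 1) from each gene's mean over 24 animals (colour, ending at −1 and 1), with genes in pathway order and animals in blocks of Control, LD*, HD and VHD, each ordered by its mean over the 38 genes, and the cohort in brackets. HD* 8, HD* 6 and LD* 5 are low in most genes, and Control 6 is high in PFKP, ALDOC, PGAM1 and SLC16A3.

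The primary question of the design was whether chronic ethanol consumption altered expression in HD* or LD* animals. Between HD* animals and controls, 0 of the 33 tested members passed an adjusted p of 0.05 (limma), as was the case for 0% of the 9197 genes. The paper instead tested read counts with DESeq2 and reported differing genes between HD* animals and controls. It also reported some between HD* and LD* animals and between HD and VHD animals. The 0 given here for HD* animals against controls belongs to limma on log2(TPM + 1). At an unadjusted p under 0.05 stood 0 members and 3.88% of all genes (357). Controls had a score over the 38 genes of 0.03 ± 0.11, LD* animals of 0.03 ± 0.18 and HD* animals of −0.07 ± 0.27 (mean ± SD, n = 8 each). By direction, 28 of the 33 members were lower in HD* animals, as were 74.0% of all genes. The median difference was −0.08 against −0.10 over all genes, so in this fit the members sat where the bulk of genes did. TMM rescaling (the trimmed mean of M-values sets a common scale for the animals) moved the all-gene median from −0.10 to 0.03. After it 8 members were lower and 25 higher, while 42.7% of all genes were lower. Array weights gave 7 lower and 26 higher (median 0.05, against −0.04 over all genes, of which 60.6% were lower). Without HD* 8 the split was 20 to 13 (median −0.01), with 61.5% of all genes lower. Without HD* 6, HD* 8 and LD* 5, a setting chosen after the data were seen, it was 4 to 29 (median 0.06). Over all genes the median in that setting was 0.01, with 47.3% lower. The direction of this small shift therefore depended on the scaling, the weighting and a few animals.

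The member with the smallest p among the 33 in this comparison was LDHB. It had 445, 572 and 695 TPM in controls (lowest, median and highest of 8) and 321, 519 and 601 TPM in HD* animals, and the groups overlapped over most of their range. The difference was −0.22 ± 0.12 (log2, SE, adjusted p = 0.806). IDH2, the mitochondrial NADP-dependent isocitrate dehydrogenase, had 192, 218 and 367 TPM in controls and 187, 209 and 222 TPM in HD* animals (−0.15 ± 0.10, adjusted p = 0.806), and its highest control, Control 8, stood far from the rest. PFKM, the muscle type phosphofructokinase, had 184, 219 and 283 TPM in controls and 117, 221 and 240 TPM in HD* animals (−0.22 ± 0.15, adjusted p = 0.806). Of the weakly expressed members, HK2 had 1.63, 2.08 and 3.20 TPM in controls and 1.17, 1.63 and 2.43 TPM in HD* animals. Its difference was −0.31 ± 0.12 (limma, unadjusted p = 0.0187, adjusted p = 0.706), in a fit where 5.68% of the 13637 genes had an unadjusted p under 0.05. PDK1, which switches pyruvate dehydrogenase off, had 3.08, 4.71 and 7.09 TPM in controls and 1.63, 3.51 and 6.92 TPM in HD* animals (−0.39 ± 0.18, adjusted p = 0.706). Neither gene was called, and both overlapped between the groups. GAPDH and PGK1 differed by −0.04 ± 0.13 and 0.01 ± 0.10 between HD* animals and controls.

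Within cohorts, HD* animals could be set against controls in cohorts 5 and 7a. In cohort 5 (4 HD* and 3 control animals), 17 of the 33 members were lower and 16 higher, with a median difference of 0.00. In cohort 7a (4 HD* and 2 control animals), 26 were lower and 7 higher, with a median of −0.14. The controls of cohort 7a included Control 8, whose neuron marker score was low (−0.59). No all-gene share is given beside these counts within cohorts. The difference between these 2 cohorts was itself tested as an interaction in 13 animals, where 0 of 33 members passed an adjusted p of 0.05 (0% of all genes), 0 had an unadjusted p under 0.05, and 1.83% of all genes (168) did. The members with the smallest p in that test were PGAM1 (−0.76 ± 0.45, cohort 7a minus cohort 5), ALDOC (−0.59 ± 0.36) and IDH2 (−0.39 ± 0.28), each with an adjusted p of 1.00.

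No member was called between LD* animals and controls. Of the 33 members 0 passed an adjusted p of 0.05 (0% of all genes), and 0 had an unadjusted p under 0.05 (1.78% of all genes, 164). The median difference was 0.02 with 20 members higher, while 51.7% of all genes were lower. This split moved with the setting. Array weights gave 5 lower and 28 higher, and leaving out Control 8 gave 17 lower and 16 higher. With the neuron marker score as a covariate, chosen after the data were seen, 18 were lower and 15 higher. ALDOC had 1351, 1873 and 3945 TPM in controls and 1194, 1794 and 2204 TPM in LD* animals (−0.25 ± 0.18, adjusted p = 1.00), the highest control being Control 6. Leaving out each animal in turn gave differences from −0.34 to −0.11 for ALDOC. SLC2A1 had 72.3, 106 and 122 TPM in controls and 66.8, 94.1 and 112 TPM in LD* animals (−0.16 ± 0.12). IDH3G, a regulatory subunit of the NAD-dependent isocitrate dehydrogenase, had 188, 238 and 261 TPM in controls and 187, 254 and 284 TPM in LD* animals (0.12 ± 0.09). All 3 genes overlapped between the groups.

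Between HD* and LD* animals, 0 of 33 members passed an adjusted p of 0.05 (0% of all genes), and 0 had an unadjusted p under 0.05 (0.728% of all genes, 67). By direction 29 were lower in HD* animals, as were 74.1% of all genes, at a median of −0.11 against −0.09 over all genes. After TMM rescaling 19 were lower and 14 higher. The smallest p belonged to FH (fumarase), which had 69.3, 93.2 and 104 TPM in LD* and 49.3, 75.8 and 110 TPM in HD* animals (−0.20 ± 0.13, adjusted p = 0.914). CS (citrate synthase, the entry enzyme of the cycle) had 130, 226 and 271 TPM in LD* and 108, 194 and 228 TPM in HD* animals (−0.24 ± 0.16). DLAT had 25.1, 39.5 and 46.3 TPM in LD* and 14.8, 36.1 and 41.9 TPM in HD* animals (−0.26 ± 0.18). In each of the 3 genes the lowest HD* value was a VHD animal.

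**Figure D3:**
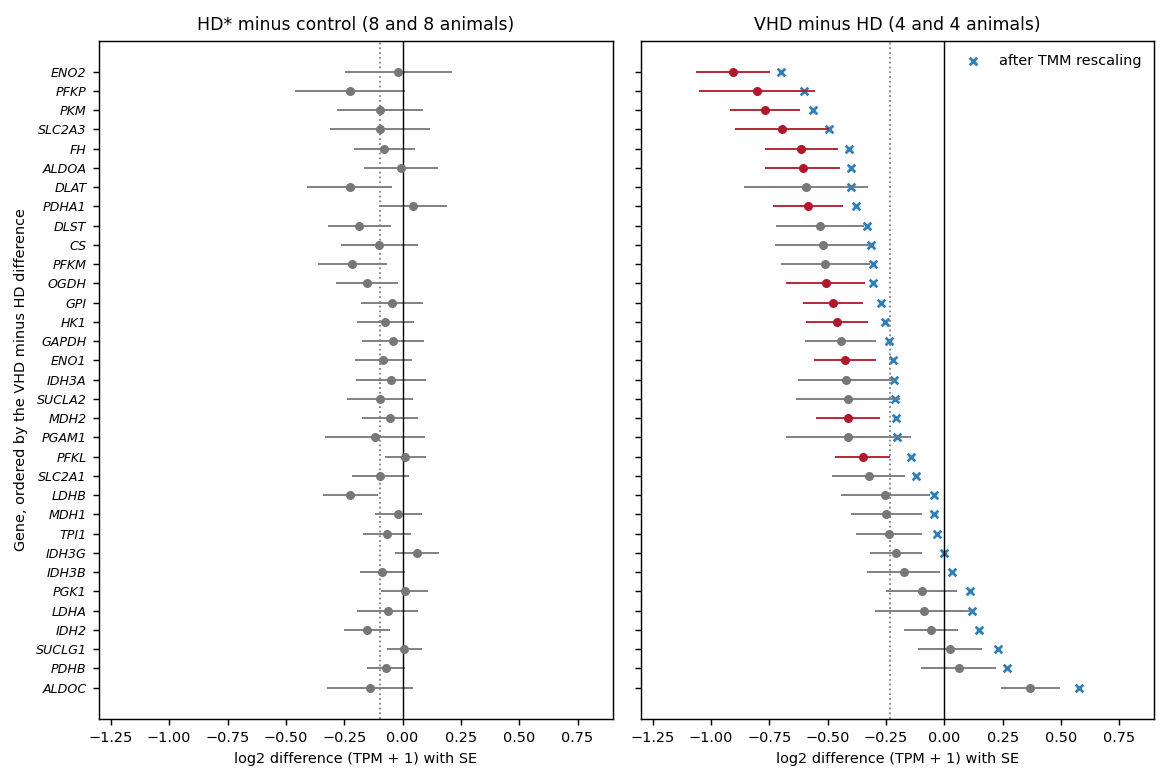
Difference in mean log2(TPM + 1) with its SE for the 33 tested genes, HD* minus control on the left and VHD minus HD on the right, in red where the adjusted p is under 0.05, with the all-gene median as a dotted line and the VHD minus HD value after TMM rescaling as a cross. On the left no gene is red and points run from −0.23 to 0.06, while on the right 13 genes are red, all below 0.

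The secondary contrast of the design, VHD against HD within the HD* group, was the comparison in which metabolic genes passed the test. Of the 33 tested members 13 were lower in VHD animals and 0 higher at an adjusted p of 0.05, against a background of 23.8% of all genes called in either direction (19% lower and 4.78% higher). The difference was negative for 30 of the 33 and for 69.5% of all genes, with a median of −0.42 against −0.23 over all genes. The 8 glycolytic enzymes called were HK1, GPI, PFKL, PFKP, ALDOA, ENO1, ENO2 and PKM. The others were the transporter SLC2A3, the pyruvate dehydrogenase subunit PDHA1 and the TCA cycle enzymes OGDH, FH and MDH2. For 13 members every VHD animal was below every HD animal (23% of all genes), and for 1, ALDOC, every VHD animal was above (6.03% of all genes). The animals compared were few, and the HD and VHD categories join at an intake of 3.09 g/kg. The smallest adjusted p over all genes was 0.0027 in this limma fit, so that 0 genes passed 0.001. By its own test of read counts, the paper did report genes at a false discovery rate under 0.001 in this contrast.

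The steps from glucose to triose phosphate were lower in VHD animals at HK1, GPI, PFKL, PFKP and ALDOA. Values are given with the 2 animals of cohort 5 first and those of cohort 7a second. HK1, which traps glucose as its 6-phosphate, had 174, 199, 181 and 209 TPM in the HD animals and 154, 157, 124 and 122 TPM in the VHD animals. The groups did not overlap and the difference was −0.46 ± 0.13 (adjusted p = 0.0304). GPI, which isomerises glucose 6-phosphate, had 599, 633, 680 and 705 TPM in HD and 487, 483, 395 and 519 TPM in VHD animals (−0.48 ± 0.13, adjusted p = 0.0225). Among the phosphofructokinases, PFKP had 112, 154, 158 and 178 TPM in HD and 91.0, 143, 62.1 and 63.0 TPM in VHD animals. The 2 VHD animals of cohort 7a were far below the rest, 1 VHD animal of cohort 5 was inside the HD range, and the difference was −0.80 ± 0.25 (adjusted p = 0.0374). PFKL differed less but without overlap, with 208, 186, 227 and 196 TPM in HD and 165, 153, 154 and 168 TPM in VHD animals (−0.35 ± 0.12, adjusted p = 0.0496). PFKM had a difference of −0.51 ± 0.19 and did not pass (adjusted p = 0.0687), with 1 VHD animal of cohort 5 (236 TPM) above 3 of the HD animals.

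The aldolases, which cleave the doubly phosphorylated fructose made by phosphofructokinase, had differences of opposite sign. ALDOA had 930, 1155, 1198 and 1302 TPM in the HD animals and 861, 848, 584 and 729 TPM in the VHD animals, a difference of −0.61 ± 0.16 (adjusted p = 0.0216). ALDOC had 1674, 1670, 1486 and 1692 TPM in HD and 1938, 2362, 2049 and 2085 TPM in VHD animals. Every VHD animal was above every HD animal in ALDOC, in both cohorts, yet the difference of 0.37 ± 0.13 did not pass (adjusted p = 0.0548). With cohort as a covariate or after TMM rescaling ALDOC was called higher. The ratio of ALDOA to ALDOC within an animal does not change with the animal's scaling, and it ran from 0.556 to 0.807 in HD and from 0.285 to 0.444 in VHD animals (log2 difference −0.98, exact permutation over 70 assignments, two-sided p = 0.0286, the smallest this design allows, adjusted p = 0.0914 over the 8 ratios, a comparison chosen after the values were seen). TPI1, which interconverts the trioses, differed by −0.24 ± 0.14 (adjusted p = 0.223).

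In lower glycolysis the 2 members with the smallest p of the whole list were found. ENO2, the neuronal enolase, had 1255, 1507, 1522 and 1356 TPM in the HD animals and 897, 874, 678 and 595 TPM in the VHD animals. The highest VHD animal stood well below the lowest HD animal, and the difference of −0.91 ± 0.16 (adjusted p = 0.0052) amounted to −46.6%. PKM had 1163, 1221, 1311 and 1431 TPM in HD and 835, 901, 617 and 678 TPM in VHD animals, a difference of −0.77 ± 0.15 (adjusted p = 0.0070) or −41.4%. ENO1, the widely expressed enolase, also fell, from 1258, 1652, 1520 and 1622 TPM in HD to 1088, 1224, 1088 and 1083 TPM in VHD animals (−0.43 ± 0.13, adjusted p = 0.0386). The ratio of ENO1 to ENO2 was 0.999 to 1.20 in HD and 1.21 to 1.82 in VHD animals (exact permutation, two-sided p = 0.0286, adjusted p = 0.0914), again without overlap.

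GAPDH and PGK1, adjacent steps of the pathway, were not called. GAPDH had 5424, 6204, 6710 and 6917 TPM in HD and 4769, 5270, 4084 and 4436 TPM in VHD animals, with no overlap, and the difference of −0.44 ± 0.15 missed the threshold (adjusted p = 0.0524). PGK1 was almost constant in the HD animals, at 506, 503, 500 and 505 TPM, and spread from 351 to 576 TPM in the VHD animals (−0.10 ± 0.15, adjusted p = 0.659). Its direction turned to 0.11 after TMM rescaling and to 0.046 without HD* 8. PGAM1 ran from 338 to 494 TPM in HD and from 176 to 479 TPM in VHD animals (−0.41 ± 0.27, adjusted p = 0.272).

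**Figure D4:**
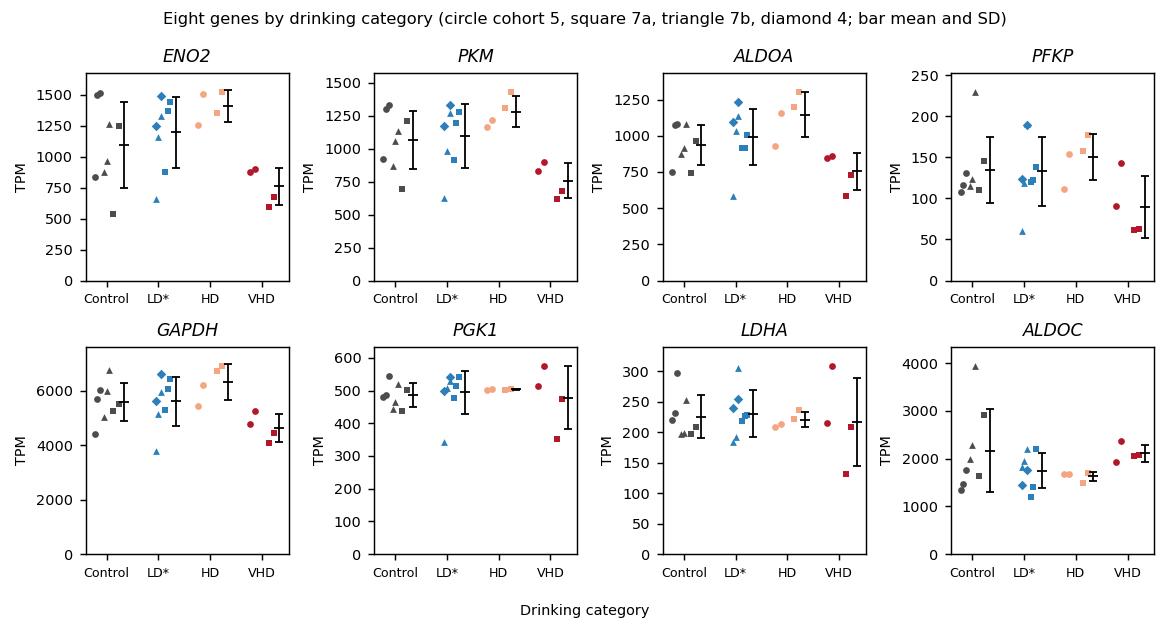
TPM of 8 genes in controls, LD*, HD and VHD animals, 1 point per animal with the cohort as the symbol and a bar for mean and SD (n = 8, 8, 4 and 4). ENO2, PKM, ALDOA and GAPDH show every VHD animal below every HD animal, ALDOC shows the reverse, and PGK1 and LDHA overlap.

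Lactate dehydrogenase was not called. LDHA had 214, 209, 237 and 221 TPM in HD and 215, 309, 209 and 132 TPM in VHD animals (−0.09 ± 0.21, adjusted p = 0.779), with both the highest and the lowest values among VHD animals. LDHB had 595, 601, 388 and 558 TPM in HD and 521, 518, 321 and 444 TPM in VHD animals (−0.25 ± 0.19, adjusted p = 0.338), and within each category cohort 7a held the lower values. The ratio of LDHA to LDHB ran from 0.348 to 0.611 in HD and from 0.297 to 0.651 in VHD animals (exact permutation, two-sided p = 0.686).

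Among transporters, the neuronal glucose transporter SLC2A3 had 55.5, 57.3, 65.6 and 61.7 TPM in HD and 42.7, 50.8, 32.9 and 25.0 TPM in VHD animals. The groups did not overlap and the difference was −0.70 ± 0.20 (adjusted p = 0.0284). SLC2A1 differed by −0.32 ± 0.16 with overlap (adjusted p = 0.142). The neuronal monocarboxylate transporter SLC16A7, near the lower limit of what was tested, was 1.43 to 2.82 TPM in HD and 0.564 to 1.34 TPM in VHD animals, with no overlap, and did not pass (−0.53 ± 0.22, adjusted p = 0.112). SLC16A1 and SLC16A3, the transporters of glia and endothelium, overlapped (−0.40 ± 0.28 and −0.06 ± 0.26).

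In the pyruvate dehydrogenase complex the E1 alpha subunit PDHA1 had 71.0, 71.0, 84.1 and 83.2 TPM in HD and 57.9, 59.7, 44.9 and 43.9 TPM in VHD animals (−0.58 ± 0.15, adjusted p = 0.0191). Its partner PDHB had 153, 176, 165 and 157 TPM in HD and 189, 214, 161 and 127 TPM in VHD animals, a difference of 0.06 ± 0.16 with overlap. DLAT was 35.0 to 40.6 TPM in HD and 14.8 to 41.9 TPM in VHD animals (−0.59 ± 0.27, adjusted p = 0.118). PDK1 differed by 0.08 ± 0.29.

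Of the 12 TCA cycle members 11 were lower in VHD animals by direction and 3 passed. FH had 80.2, 110, 93.8 and 93.4 TPM in HD and 68.9, 71.4, 49.3 and 57.0 TPM in VHD animals (−0.61 ± 0.16, adjusted p = 0.0191). OGDH, the E1 subunit of the oxoglutarate dehydrogenase complex, had 126, 161, 142 and 142 TPM in HD and 111, 131, 77.5 and 86.5 TPM in VHD animals, with 1 VHD animal of cohort 5 inside the HD range (−0.51 ± 0.17, adjusted p = 0.0491). The mitochondrial malate dehydrogenase MDH2 had 481, 492, 502 and 546 TPM in HD and 445, 414, 314 and 355 TPM in VHD animals (−0.41 ± 0.14, adjusted p = 0.0463). CS and DLST had differences of −0.52 ± 0.21 and −0.53 ± 0.19 that did not pass (adjusted p = 0.0836 and 0.0579). SUCLG1 was the exception by direction at 0.02 ± 0.14, whereas its partner SUCLA2, the ATP-forming subunit of succinyl-CoA ligase, had −0.41 ± 0.22 (adjusted p = 0.186). The remaining cycle members, IDH2, IDH3A, IDH3B, IDH3G and MDH1, differed by −0.42 to −0.06 and were not called, IDH3G without overlap between the categories.

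Set beside the control mean, the means of the HD and VHD animals lay on opposite sides for most members. For 26 of the 33 tested members (78.8%) the mean of the HD animals was above the control mean and that of the VHD animals below it, a pattern shown by 44% of all genes. ENO2, for example, averaged 1093 ± 346 TPM in controls, 1410 ± 127 in HD and 761 ± 148 in VHD animals, and PKM averaged 1067 ± 223, 1281 ± 117 and 758 ± 133 TPM (mean ± SD, n = 8, 4 and 4). The spread of the controls in both genes covered most of the distance between the categories. The 6 members ALDOC, LDHA, LDHB, PDHB, IDH2 and IDH3B were below the control mean in both categories, which was the case for 34.2% of all genes.

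The lower levels of the called members in VHD animals were found in both cohorts, with a larger difference in cohort 7a. Over all genes the difference was also larger in cohort 7a, and it was slight in cohort 5. All 13 called members were lower in VHD than in HD animals in cohort 5 (2 against 2) and in cohort 7a (2 against 2). They were called from these same 8 animals, so their direction within the cohorts is no independent support. The difference was larger in cohort 7a for all 13, as it was for 92.6% of the 1746 genes called lower. ENO2 differed by −0.64 in cohort 5 and −1.18 in cohort 7a, PKM by −0.46 and −1.08, PFKP by −0.20 and −1.41, and SLC2A3 by −0.27 and −1.12. Over the 33 tested members, 27 were lower in cohort 5 (median −0.18, against −0.05 over all genes, of which 55.1% were lower) and 32 in cohort 7a (median −0.65, against −0.43 over all genes, of which 75.9% were lower). The exception in cohort 7a was ALDOC, at 0.36 in cohort 5 and 0.38 in cohort 7a. When the difference between cohorts was tested in the 8 animals, a test added after the data were seen that leaves 4 residual degrees of freedom, 0 of 33 members and 0 of 9197 genes passed an adjusted p of 0.05. At an unadjusted p under 0.05 stood 16 of the 33 members and 2015 of the 9197 genes, a larger share of the members than of all genes. The median of the interaction was −0.47 over the members and −0.36 over all genes, and the smallest adjusted p was 0.192.

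Markers of neurons moved with these genes. In the same contrast 6 of 10 neuron markers were called lower in VHD animals (all 10 were lower by direction, median −0.86) and 11 of 12 striatal projection neuron markers were called lower (all 12 by direction, median −1.15), among them DRD1 at −1.20 ± 0.19 and PDE10A at −1.61 ± 0.21. The neuron markers summed to between 6536 and 7353 TPM in HD and between 3442 and 5096 TPM in VHD animals, and the striatal markers to between 9363 and 10954 TPM and between 3550 and 6310 TPM. Astrocyte markers were called higher for 2 of 10 (GFAP at 1.39 ± 0.30 and S100B at 1.09 ± 0.19), and 9 of 10 were higher by direction (median 0.26). They summed to 2358 to 4111 TPM in HD and 5073 to 8123 TPM in VHD animals, a sum in which GFAP weighs most, while the astrocyte score, in which each marker counts equally, overlapped (−0.59 to 0.04 in HD and −0.27 to 0.64 in VHD animals). Microglia markers were called higher for 4 of 7 tested (AIF1, C1QA, C1QB and C1QC), summing to 343 to 443 TPM and 448 to 762 TPM. Of 10 oligodendrocyte markers 1 was called higher (MBP) while 7 were lower by direction, and of 6 tested endothelial and mural markers 1 was called lower (ESAM) and 5 were lower by direction. None of the summed levels was at or near 0.

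When the neuron marker score was added to the model of the 8 animals, an alternative chosen after the data were seen, 0 members were called (0.0109% of all genes, 1 gene) and 21 of 33 members had a positive difference, at a median of 0.13 against 0.19 over all genes, of which 31.8% were negative. With the striatal projection neuron score as a covariate, 0 members and 0 genes were called, and 32 of 33 members had a negative difference (30 without the score), at a median of −0.64 against −0.51 over all genes, of which 77.9% were negative. Both scores separate the categories without overlap, with striatal scores of 0.58 to 0.84 in HD and −0.75 to −0.02 in VHD animals and neuron scores of 0.18 to 0.43 in HD and −0.77 to −0.03 in VHD animals, so the effect of category and that of the score can hardly be told apart in 8 animals. With cohort as a covariate 17 members were called (31% of all genes), of which 16 were lower and ALDOC was higher. After TMM rescaling, which moved the all-gene median from −0.23 to −0.03, 5 members were called lower (ENO2, PKM, SLC2A3, PDHA1 and PFKP) and 1 higher (ALDOC). This was a smaller share than the 26.1% of all genes. By direction 26 of the 33 members were still negative, against 53.1% of all genes.

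The number of calls also depended on single animals. It was 2 without HD* 5, HD* 6 or HD* 7, 3 without HD* 3, 8 without HD* 8, 9 without HD* 1 or HD* 2, and 22 without HD* 4, the VHD animal with the highest metabolic score (0.09). ENO2 and PKM were called in all 8 of these fits, with differences between −0.99 and −0.79 and between −0.86 and −0.68. PDHA1 was called in 5, and ALDOA, FH and GPI in 4. The share of all genes called moved too, to 9.49%, 8.04% and 11.4% without HD* 5, HD* 6 and HD* 7, where 6.06% of the members were called. It was 9.83% without HD* 3 (9.09% of the members), 20.7% without HD* 8 (24.2%), 24.1% and 15.1% without HD* 1 and HD* 2 (27.3% in each) and 44.5% without HD* 4 (66.7%). Without HD* 3, HD* 5, HD* 6 or HD* 7 the members' share was below that of all genes.

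**Figure D5:**
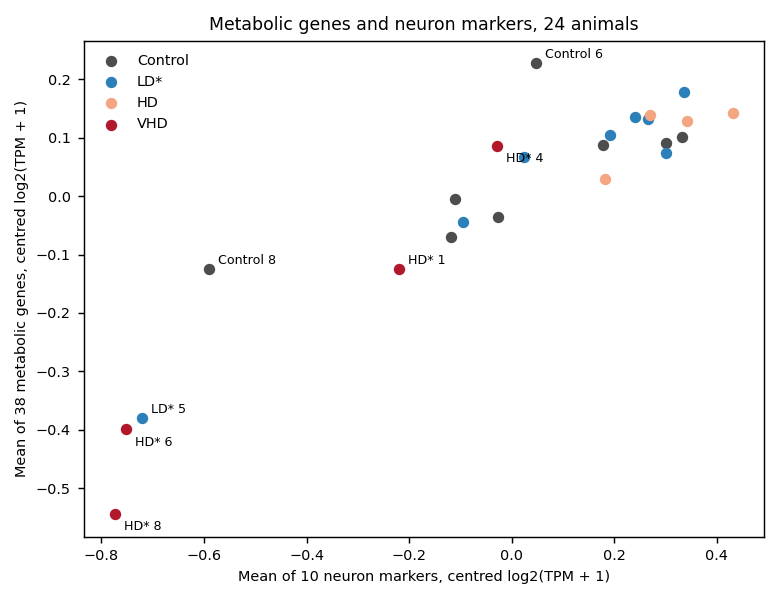
Mean of the 38 metabolic genes against the mean of 10 neuron markers, both as centred log2(TPM + 1), 1 point per animal coloured by drinking category (n = 24). HD* 8, HD* 6 and LD* 5 are lowest on both axes, Control 6 is the highest on the metabolic axis at 0.23, and the HD animals lie together at the right.

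Daily intake was next taken as a number in the 16 drinkers. Of the 33 members 0 passed an adjusted p of 0.05 (0% of all genes), and 0 had an unadjusted p under 0.05 (6.86% of all genes, 631). A negative slope was found for 31 of them and 73.7% of all genes, at a median of −0.09 per g/kg against −0.07 over all genes. The smallest p belonged to GPI (−0.15 ± 0.07 per g/kg), CS (−0.20 ± 0.10) and DLAT (−0.22 ± 0.11), each with an adjusted p of 0.457. After TMM rescaling 22 slopes were negative and 11 positive. With cohort as a covariate the median slope was −0.24 per g/kg against −0.20 over all genes, 0 members and 0 genes were called, and 10 members (30.3%) had an unadjusted p under 0.05, as did 34.2% of all genes (3148). The score over the 38 genes did not change in 1 direction with intake category, as its mean was 0.03 in LD*, 0.11 in HD and −0.25 in VHD animals.

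Cohort, tested with group in the model, gave 0 of 33 members at an adjusted p of 0.05 (0% of all genes) and 1 at an unadjusted p under 0.05 (8.32% of all genes, 765). The smallest p belonged to SUCLA2 (F = 3.20), followed by IDH3A, the catalytic subunit of the NAD-dependent isocitrate dehydrogenase (F = 3.00), and DLAT (F = 2.74), each with an adjusted p of 0.537. SUCLA2 averaged 105 ± 3.69 TPM in cohort 4 (n = 2), 106 ± 6.84 in cohort 5 (n = 7), 88.3 ± 19.4 in cohort 7a (n = 9) and 90.2 ± 12.9 TPM in cohort 7b (n = 6), and the low values of cohorts 7a and 7b included HD* 8 (48.2 TPM) and LD* 5 (73.5 TPM).

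A ratio of 2 isoforms within an animal does not depend on how that animal was scaled, and 8 such ratios were compared between the 3 groups. In 24 exact permutation tests (12870 assignments each, two-sided) 0 had a p under 0.05, and the smallest adjusted p was 0.740. The smallest p was that of HK2 to HK1, which averaged 0.0138 ± 0.0036 in controls and 0.0106 ± 0.0032 in HD* animals (log2 difference −0.40, exact permutation p = 0.0626). In cohort 5 that difference was −0.17 and in cohort 7a −0.55 (exact permutation, p = 0.211 over the 525 assignments within cohorts). For SLC2A1 to SLC2A3 the controls averaged 2.11 ± 0.55, LD* animals 1.70 ± 0.51 and HD* animals 2.08 ± 0.39. For LDHA to LDHB they averaged 0.399 ± 0.059, 0.441 ± 0.066 and 0.459 ± 0.138 (mean ± SD, n = 8 each). The groups overlapped in both ratios.

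Other genes of the same pathways were taken from a list of 75 symbols, of which 73 were in the table and 52 could be tested. In HD* against control, LD* against control, HD* against LD*, the intake slope, cohort and the cohort interaction, 0 of the 52 passed an adjusted p of 0.05. In that order, 2, 1, 0, 3, 2 and 2 of them had an unadjusted p under 0.05. The shares of all genes were 3.88%, 1.78%, 0.728%, 6.86%, 8.32% and 1.83%. These tests were limma fits of log2(TPM + 1). By its test of read counts, the paper listed EGLN1, which is among the 52, as lower in HD* animals than in controls. In VHD against HD 6 of the 52 were called lower and 1 higher, both smaller shares than the 19% and 4.78% of all genes. PDP1, the phosphatase that switches pyruvate dehydrogenase on, averaged 77.8 ± 17.8 TPM in HD and 29.2 ± 8.64 TPM in VHD animals (−1.40 ± 0.21, adjusted p = 0.0035). The kinases PDK3 and PDK2, which switch it off, were lower too, at 14.1 ± 2.27 and 6.42 ± 2.31 TPM (−1.07 ± 0.26, adjusted p = 0.0144) and at 117 ± 9.29 and 86.4 ± 6.09 TPM (−0.43 ± 0.12, adjusted p = 0.0272). BSG (basigin), which carries monocarboxylate transporters to the membrane, fell from 637 ± 48.5 to 398 ± 70.8 TPM (−0.69 ± 0.14, adjusted p = 0.0088). GPD1L, related to the glycerol phosphate dehydrogenases, and pyruvate carboxylase (PC), which makes oxaloacetate from pyruvate and is mostly astrocytic, were lower by direction and test (−0.59 ± 0.18 and −0.42 ± 0.13, adjusted p = 0.0394 and 0.0395). GLUD1, the glutamate dehydrogenase that feeds glutamate carbon into the cycle, was higher, at 303 ± 11.9 TPM in HD and 417 ± 38.1 TPM in VHD animals (0.45 ± 0.12, adjusted p = 0.0197). None of the 7 was called with the neuron or striatal score as a covariate.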

How the data were processed

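RNA-Seq was performed by the authors on polyA-selected libraries of the NAcc core from 24 animals. Per the labels, reads were aligned to the MacaM assembly with STAR 2.5.2b (at most 2 mismatches, uniquely aligned reads only) and counted with HTSeq 0.6.1p1, so genes with near-identical copies could lose reads. The deposited values are TPM made by the authors, with columns summing to 999998 to 1000000; how counts became TPM and the depth of each library are not given in the sources used here, which state only an average depth over samples, and no counting error or count test is given. Pairing of the reads is described differently in the methods and the public record. Groups, categories, cohorts and intake came from the sample labels.

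Log2(TPM + 1) of the 9197 genes averaging at least 10 TPM was fitted with limma 3.58.1 (R 4.3.3, empirical Bayes with a trend), with the Benjamini-Hochberg adjustment over all genes. HD* vs control, LD* vs control and HD* vs LD* came from 1 model of 24 animals, VHD vs HD from 8 animals, the intake slope from 16 drinkers, the F test of cohort from 24 animals with group in the model, and the interaction with cohort from 13 animals. Members below 10 TPM came from the fit over 13637 genes with at least 1 TPM. Ratios were tested by exact permutation, and scores over the members were not tested (Python 3.11.15, numpy 2.4.6, scipy 1.17.1, pandas 2.3.3, matplotlib 3.10.9). The steps were tested on simulated data, in which some genes were given a set log2 change. Each gene was drawn on its own from a normal distribution with its mean and SD over all 24 animals. Variation shared between genes was left out, and the spread within the compared animals was not used. The counts that follow therefore need not hold for the real values. In HD* vs control, 21 of 67 were recovered at a change of 0.5 and 63 of 67 at 1. In VHD vs HD, 2 of 67 were recovered at 0.5, 23 of 67 at 1 and 59 of 66 at 2. For the intake slope, 61 of 67 were recovered at 0.5 per g/kg of daily intake. Over the drinkers' range of intake that is a larger change than 0.5 between groups.

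The members, the other lists, the markers and the tests were chosen with earlier results of these data known. Named members are those with the 3 smallest p in each comparison, the 5 highest levels, the 5 largest and 3 smallest SDs, the isoform ratios, GAPDH and PGK1, and every member called in VHD vs HD. Alternatives were pseudocounts of 0.1 and 8, no filter, a filter of 1 TPM, TMM rescaling (trimming 30% of M and 5% of A), array weights, cohort and marker scores as covariates, and leaving out each animal. Gene positions and sequences are not reported here.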

Additional observations from a re-analysis of the deposited data

Results flagged for a closer look

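In each group of 8 animals the lowest and the highest value of each named gene, score and ratio were compared with the rest by Dixon's criterion (95%), under which chance marks about 1 in 20 groups. Of 126 groups checked, 13 held such a value. LD* 5 was lowest and apart in ENO1 (942 TPM, the other LD* animals at 1322 to 1586), PGK1 (342 TPM, others 478 to 542), SUCLA2 (73.5 TPM, others 95.0 to 108) and MDH1 (1005 TPM, others 1279 to 1400), and in the score over all 38 genes (−0.38, others −0.04 to 0.18). HD* 8, a VHD animal, was lowest in PGK1 (351 TPM, the other HD* animals at 475 to 576). Both animals were also among the 3 with the lowest neuron marker scores.

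Control 8 was the highest control in IDH2 (367 TPM, others 192 to 235), in the ratio of ENO1 to ENO2 (2.96, others 0.832 to 1.81) and in the ratio of PFKL to PFKM (1.01, others 0.691 to 0.837). Control 6, the animal with the lowest sum of striatal projection neuron markers, was the highest control in PFKP (230 TPM, others 109 to 146) and in the ratio of SLC16A1 to SLC16A7 (18.2, others 4.47 to 8.93). SLC16A7, a weakly expressed gene, was highest in LD* 8 among LD* animals (2.61 TPM, others 0.995 to 1.67) and in HD* 2 among HD* animals (2.82 TPM, others 0.564 to 1.59).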

How the results depend on the processing

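In HD* vs control, LD* vs control, HD* vs LD*, the intake slope, cohort and the cohort interaction, 0 members, 0 other pathway genes and 0 genes in all were called under every alternative run. In VHD vs HD the 13 members called became 7 with no filter, 6 after TMM rescaling, 27 with array weights, and 0 with the striatal projection neuron or the neuron score as a covariate, and 2 to 22 with each animal left out. The 2186 genes called in all became 1408 with no filter, 5939 with array weights, 0 and 1 with those 2 scores, and 739 to 4094 with each animal left out. The 7 other pathway genes became 35 with array weights, 15 with cohort as a covariate, 0 with either score, and 2 to 21 with each animal left out. The cause was not tested. With the neuron score 21 of 33 members were positive (3 without it), OGDH (0.13), PFKP (0.33), SLC2A3 (0.10) and PGK1 (0.37) among them, and PGK1 changed sign after TMM rescaling (0.11) and without HD* 8 (0.046, the range with each animal left out being −0.19 to 0.046). The neuron score, the fits without HD* 6, HD* 8 and LD* 5 together, the VHD interaction with cohort and the VHD vs HD ratios were chosen after seeing the data. No paired analysis was possible because the labels give no replicate numbers and each animal is a separate individual. TPM do not show each library's depth, so small differences of the weakly expressed members are not detectable with a known precision.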
